A study of Mus musculus with 48 samples.

Results

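The step from pre-red pulp macrophages (pre-RPMs) to mature red pulp macrophages (RPMs) of the mouse spleen was followed by RNA-seq in the 8 libraries that the labels give as wild type (WT) pre-RPMs and WT RPMs, 4 of each, out of 24 RNA libraries in a series of 48 samples. The mice were male Balb/c animals aged 10 weeks with no allele or treatment given in the labels, and every library came from a single mouse. Pre-RPMs had been sorted as Ly6Glo CD11bhi F4/80lo splenocytes and RPMs as Ly6Glo CD11blo/- F4/80hi splenocytes, so that the transcripts of F4/80 (Adgre1) and CD11b (Itgam) belong to the gate and are not results. Mouse numbers 1 to 4 occur in both groups and are used here as replicate numbers. Same-numbered libraries were taken as the same animal, which the labels do not state outright. The main fit, which gave the SE and adjusted p of single genes, has no block for the mouse. The 4 WT monocyte libraries (Ly6Glo CD11bhi F4/80-) appear only as levels beside the others, and the 8 pre-RPM and RPM libraries labelled Il1rl1-/- (male, Balb/c background, 10 weeks) appear only at the end.

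RPMs lie in the cords of the splenic red pulp, where they engulf aged red blood cells, break down haem with haem oxygenase, store the iron in ferritin, and return it to the blood through ferroportin. Their development depends on the transcription factor SPIC, whose gene is held down by the repressor BACH1 until haem removes it. Blood-derived monocytes can enter this pathway, and pre-RPMs are the F4/80-low cells placed between monocytes and RPMs.

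Total counts on genes ranged from 4363639 to 5105725 in the pre-RPM libraries and from 4340434 to 4785254 in the RPM libraries. Levels are given as CPM, the counts of a gene divided by the TMM-scaled library total and multiplied by 1e6. The TMM factor is a correction for differences in library composition. A count of 3, taken as the floor of detection, corresponded to between 0.613 and 0.805 CPM, which covers counting error only. The noncoding gene Gm42418 took from 25.9% to 38.8% of the counts. Across the 11239 genes tested, log2 CPM correlated at r = 0.956 to 0.972 between pre-RPM libraries, at 0.945 to 0.975 between RPM libraries, and at 0.663 to 0.768 between the groups. Genes are not independent replicates, and these values describe the libraries only. The pre-RPM library of mouse 3 was the nearest of its group to the RPM libraries, with a mean r of 0.738 against 0.693 to 0.712 for the other 3, and it also had the highest pre-RPM level of many RPM transcripts named below.

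The marker lists set the groups apart, and pre-RPMs lay nearer to the monocyte libraries than to RPMs. All 15 tested members of a list of 16 RPM markers were higher in RPMs, with a median log2 fold change of 5.59 against −0.00118 for all genes tested. The last, Gdf15, had too few counts to be tested. The summed level of the list was 197 to 435 CPM in pre-RPMs and 8281 to 10590 CPM in RPMs. In WT monocyte replicates 1 to 4 it was 97.8, 86.9, 177, and 136 CPM, and the difference from pre-RPMs was not tested. Monocyte markers behaved the opposite way, with 18 of 18 lower in RPMs, a median log2 fold change of −5.76, and a summed level that went from 7186 to 8621 CPM down to 87.4 to 283 CPM. In WT monocyte replicates 1 to 4, the summed level of this monocyte list was 3048, 2291, 7569, and 5462 CPM. The fall to RPMs thus started from pre-RPM levels that were mostly above those of the monocyte libraries, a difference that was not tested. Of these lists, Adgre1 and Itgam are gate markers, and they are part of the counts and sums above. The lists were chosen with earlier results of these data known. Their calls therefore describe the groups and are no test of the names. In sorted populations like these, fewer cells of a type and less RNA per cell cannot be told apart.

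**Figure D1:**
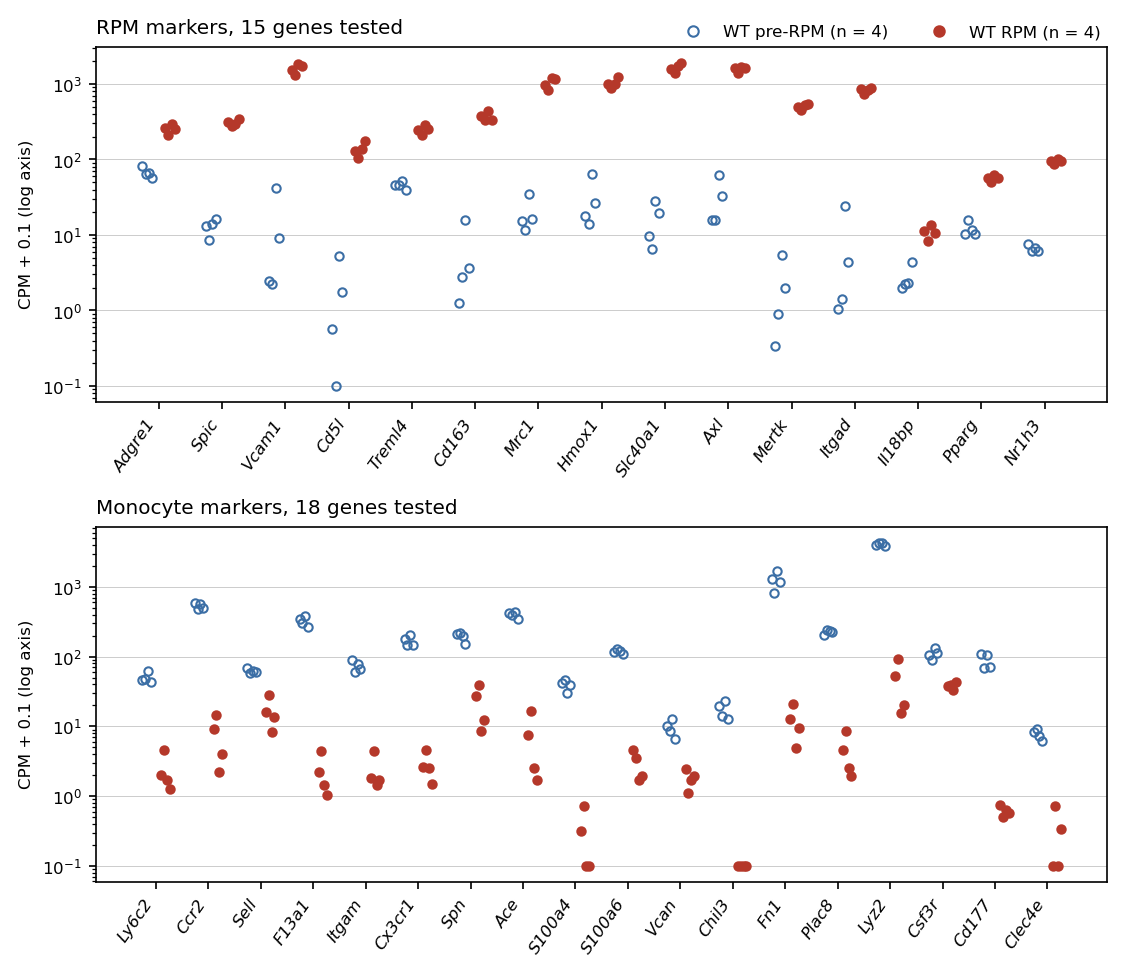
Level of 15 RPM markers and 18 monocyte markers in each of the 8 libraries (CPM, log axis, with 0.1 added for display). Open circles are WT pre-RPM replicates and filled circles WT RPM replicates, and for every marker shown the 4 RPM libraries lie on the other side of the 4 pre-RPM libraries, without overlap.

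Spic itself was expressed in pre-RPMs and increased further. Its levels were 13.1, 8.43, 14.02 and 16.2 CPM in pre-RPM replicates 1 to 4 and 313, 274, 297 and 348 CPM in RPM replicates 1 to 4 (log2 fold change 4.52, SE 0.18, adjusted p = 1.88e-10). Every RPM library lay far above every pre-RPM library, and WT monocytes had a mean of 2.59 CPM. Vcam1, an adhesion molecule of RPMs, was at 2.33, 2.11, 42.0 and 9.08 CPM in pre-RPMs and at 1550, 1314, 1865 and 1739 CPM in RPMs (log2 fold change 6.82, SE 0.73, adjusted p = 2.41e-06). The pre-RPM library of mouse 3 stood above the other 3 pre-RPM libraries, and without it the log2 fold change of Vcam1 was 8.42. Cd5l, a secreted scavenger receptor protein of macrophages, went from 0.467, 0, 5.16 and 1.67 CPM to 128, 104, 138 and 177 CPM (log2 fold change 6.15, SE 0.42, adjusted p = 2.66e-08), and was 7.43 without pre-RPM replicate 3. For Treml4, a receptor that binds dying cells, the groups were closer, at 39.4 to 52.1 CPM and 209 to 282 CPM (log2 fold change 2.38, SE 0.13, adjusted p = 3.40e-09). Pparg and Nr1h3, nuclear receptors for lipid ligands, rose with log2 fold changes of 2.19 and 3.80.

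Over all genes, 1571 of 11239 tested (14.0%) were higher in RPMs and 1205 (10.7%) were lower, at an adjusted p under 0.01 and a log2 fold change above 1 or below −1 in the quasi-likelihood F test of edgeR, adjusted by Benjamini and Hochberg over all of these genes. The words rose and fell are used only for genes past both thresholds, and adjusted p-values for single genes come from this test. The 4 libraries of one group did not overlap with those of the other for 1557 of the genes that rose and 1188 of those that fell, and for 46.6% of all genes tested. Rises were the larger changes, with 265 genes above a log2 fold change of 4 and 81 above 6, against 145 falls below −4 and 23 below −6. Scaled by library totals alone, without TMM, the counts were 1979 higher and 941 lower, the share of rises among called genes was 67.8% in place of 56.6%, and the median of all genes moved up by 0.22 on the log2 scale. Of the genes named here, 13 that fell kept their direction but were no longer called with that scaling, at log2 fold changes of −1.07 to −0.82, namely Cebpd, Ciita, Ctsh, Gm24270, Gm2a, Gsdmd, Ifngr1, Ifngr2, Il1rl1, Irf5, Irf7, Itga2b, and Tnf. Conversely Nlrp3, Plk1, and Pdgfra were called as higher only with that scaling among the scalings tried, at 1.76, 2.75, and 1.09. Of the called genes, 1438 rises and 1076 falls were protein coding, as were 10205 of the 11239 genes tested.

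**Figure D2:**
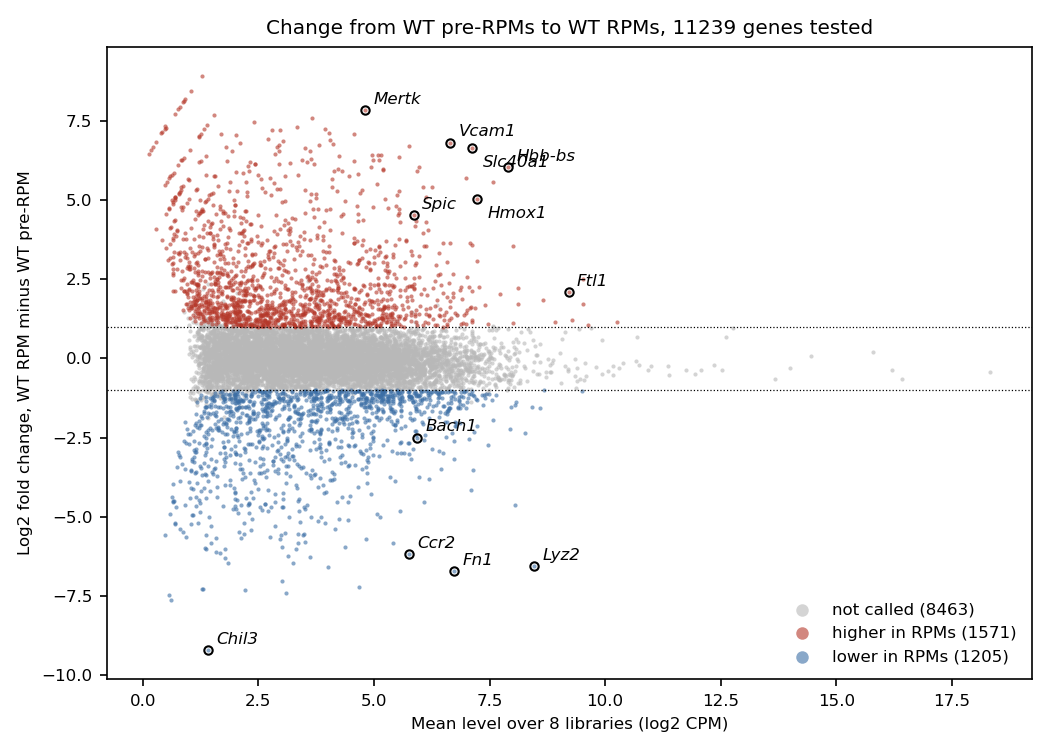
Log2 fold change from WT pre-RPMs to WT RPMs (y axis) against mean log2 CPM over the 8 libraries (x axis) for the 11239 genes tested. Grey points were not called, coloured points are the 1571 genes higher and the 1205 genes lower in RPMs, and 12 genes described in the text are named.

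The 15 largest rises among genes with non-overlapping groups and a mean log2 CPM of at least 1 were led by transcripts with no or almost no counts in pre-RPMs. Akr1b7, an aldo-keto reductase, had 0 counts in the 4 pre-RPM libraries and 13.4, 15.9, 16.9 and 12.3 CPM in RPM replicates 1 to 4, at least 79.3-fold higher against a floor of 3 counts over the group. The transcript Gm48996 also had 0 counts in pre-RPMs and was at least 56.5-fold higher. Over the 4 pre-RPM libraries there was 1 count of Gm48958, Col19a1, C130075A20Rik, and Pcolce2, and there were 2 of A4galt, the enzyme that makes the glycolipid Gb3, for which RPMs had 379 counts. The ratio of A4galt between RPMs and pre-RPMs was 175 (exact 95% counting interval 48.2 to 1450). Mertk, a receptor that drives the engulfment of apoptotic cells, was at 0.234, 0.790, 5.41 and 1.91 CPM in pre-RPMs and at 494, 451, 520.1 and 547 CPM in RPMs (log2 fold change 7.85, SE 0.41, adjusted p = 1.84e-09). Its highest pre-RPM level was again in mouse 3, and without that library the log2 fold change was 8.91.

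The rest of these 15 genes were mostly membrane proteins. The voltage-gated potassium channel gene Kcna2 went from 1.63, 0.790, 1.97 and 0.717 CPM to 177, 186, 171 and 221 CPM (log2 fold change 7.12, SE 0.21, adjusted p = 9.70e-11), with a narrow spread in both groups. Kcnj16, an inward rectifier potassium channel, had a log2 fold change of 7.32, the diacylglycerol kinase gene Dgki one of 7.59, and Paqr9, Vstm4, Sema6a, and Mpzl1 had values of 7.25, 7.47, 7.22, and 7.21. In WT monocytes, Kcna2, Kcnj16, Dgki, and Paqr9 were at means of 0.803, 0.134, 0.330, and 0.906 CPM. Single pre-RPM libraries with a few counts set these values. Without pre-RPM replicate 3, Dgki was at 9.97, Kcnj16 at 8.79, Mpzl1 at 8.80, Sema6a at 8.47, and Paqr9 at 7.88, and without pre-RPM replicate 4 Vstm4 was at 8.77.

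The largest falls by the same rule were genes of monocytes and granulocytes and of their secreted products. Chil3, a chitinase-like secreted protein, had 19.6, 13.96, 22.9 and 12.7 CPM in pre-RPMs and 0 counts in RPMs, at least 102-fold lower. Lyz2, the lysozyme gene of myeloid cells, was at 4069, 4290, 4275 and 3842 CPM in pre-RPM replicates 1 to 4 and at 52.5, 91.8, 15.3 and 20.4 CPM in RPM replicates 1 to 4 (log2 fold change −6.56, SE 0.50, adjusted p = 8.18e-08). Per kilobase of gene length it had the highest level of all protein-coding genes tested in pre-RPMs, at 3130 CPM per kilobase, and 34.2 in RPMs. RPM replicates 1 and 2 held more Lyz2 than replicates 3 and 4. Fn1, fibronectin, fell from 1284, 816, 1691 and 1173 CPM to 12.6, 20.6, 4.83 and 9.51 CPM (log2 fold change −6.73, SE 0.38, adjusted p = 3.64e-09). F13a1, the A chain of coagulation factor XIII, had a log2 fold change of −7.22, the neutrophil surface protein gene Cd177 of −7.40, and the calcium-binding protein gene S100a4 of −7.32. Ccl9, Serpinb10, Ldlrad3, Arhgef37, Sgms2, and Ptgir fell with log2 fold changes between −7.03 and −6.27, where Ccl9 is a chemokine, Sgms2 a sphingomyelin synthase, and Ptgir the prostacyclin receptor. Without RPM replicate 2, the highest of its group for several of these genes, the log2 fold changes were −7.17 for Lyz2, −8.55 for S100a4, and −7.66 for Serpinb10. Of Cd300lg and Smpdl3b, the RPM libraries held 1 count each, against 216 and 212 in pre-RPMs, a ratio for Cd300lg between pre-RPMs and RPMs of 233 (exact 95% counting interval 41.4 to 9250).

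By the difference in mean level, the 8 leading rises were Hbb-bs, Slc40a1, Ctsb, Vcam1, Axl, Hba-a1, Lrp1, and Ftl1, and the 8 leading falls were Lyz2, Ahnak, Fn1, Vim, Cybb, Gm24270, Ccr2, and Coro1a. Ahnak, a large scaffold protein, went from 1603 ± 268 to 65.9 ± 52.3 CPM (mean ± SD, n = 4; log2 fold change −4.64, SE 0.46, adjusted p = 1.02e-06). The intermediate filament gene Vim went from 652 ± 119 to 37.8 ± 19.5 CPM, and Coro1a, which binds actin in leukocytes, from 551 ± 51.4 to 48.8 ± 27.5 CPM. In RPMs, these 3 genes were also higher in replicates 1 and 2 than in replicates 3 and 4, and without RPM replicate 2 the log2 fold change of Ahnak was −5.31. Cybb, the catalytic subunit of the phagocyte NADPH oxidase, went from 843, 639, 906 and 631 CPM to 152, 138, 169 and 148 CPM (log2 fold change −2.36, SE 0.15, adjusted p = 1.63e-08), with 4 closely grouped RPM libraries. Gm24270, annotated as a microRNA, was just past the fold threshold, at −1.036 (SE 0.17, adjusted p = 0.000169). Its call was lost without pre-RPM replicate 3, RPM replicate 1, or RPM replicate 4, with log2 fold changes of −0.90, −0.98, and −0.96.

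Most tested genes of iron and haem handling were higher in RPMs. Of 36 listed genes, 29 were tested, and 18 of these (62.1%) rose while 3 (10.3%) fell, with a median log2 fold change of 1.45. The 7 not tested, which include hepcidin (Hamp) and haemopexin (Hpx), had few counts in both groups. Slc40a1, ferroportin, the only known iron exporter, was at 9.57, 6.32, 28.3 and 19.6 CPM in pre-RPMs and at 1586, 1393, 1746 and 1888 CPM in RPMs (log2 fold change 6.65, SE 0.39, adjusted p = 5.07e-09). The groups were wide apart, and pre-RPM replicates 3 and 4 were above replicates 1 and 2. Hmox1, inducible haem oxygenase, went from 17.98, 13.96, 64.4 and 26.5 CPM to 992, 888, 1010 and 1243 CPM (log2 fold change 5.03, SE 0.40, adjusted p = 1.15e-07), and per kilobase it ranked among the 20 highest protein-coding genes of RPMs at 590.1 CPM per kilobase. Without pre-RPM replicate 3, its log2 fold change was 5.67. Haem oxygenase 2, Hmox2, which is made constitutively, had a log2 fold change of 0.65 and did not pass the fold threshold.

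The steps around haem oxygenase rose as well. Cd163, the receptor for haemoglobin bound to haptoglobin, went from 1.17 to 15.5 CPM to 329 to 439.9 CPM (log2 fold change 5.97, SE 0.47, adjusted p = 1.18e-07), with the highest pre-RPM level in mouse 3 and a log2 fold change of 7.17 without it. Slc48a1, which carries haem out of the lysosome, went from 21.0, 19.2, 32.5 and 18.9 CPM to 154, 140.5, 245 and 190.4 CPM (log2 fold change 2.95, SE 0.21, adjusted p = 3.83e-08). The biliverdin reductases Blvrb and Blvra, which turn biliverdin into bilirubin, rose from 9.17 ± 1.31 to 100.2 ± 8.83 CPM (log2 fold change 3.40) and from 10.5 ± 2.04 to 42.0 ± 6.12 CPM (log2 fold change 1.95). Lrp1, a receptor for haem bound to haemopexin and for many other ligands, was already high in pre-RPMs, at 762 to 1055 CPM, and reached 1880 to 2185 CPM (log2 fold change 1.16, SE 0.14, adjusted p = 9.19e-06). Hp, haptoglobin, fell from 58.5 to 89.7 CPM to 1.06 to 2.25 CPM (log2 fold change −5.57, SE 0.24, adjusted p = 3.88e-10), and Lcn2, which binds bacterial iron carriers, fell with a log2 fold change of −3.40, or −4.04 without RPM replicate 1.

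For storage and transport of iron, the ferritin light and heavy chains rose from high starting levels. Ftl1 was at 311, 268, 367 and 296 CPM in pre-RPMs and at 1257, 1049, 1637 and 1498 CPM in RPMs (log2 fold change 2.09, SE 0.17, adjusted p = 1.44e-07), and Fth1 at 226, 199, 275 and 219 CPM and 804, 637, 1062 and 886 CPM (log2 fold change 1.84, SE 0.17, adjusted p = 5.49e-07). Per kilobase, their levels in RPMs were close, at 1015 and 978 CPM per kilobase. Reads from ferritin pseudogenes may be split among copies, which was not examined. Slc11a1 (NRAMP1) and Slc11a2 (DMT1), which pump iron out of endosomes and phagosomes, rose with log2 fold changes of 2.08 and 1.45. The transferrin receptor Tfrc rose from 5.26 ± 0.654 to 55.9 ± 9.54 CPM, and transferrin itself, Trf, from 7.53 ± 1.13 to 31.6 ± 1.27 CPM. The zinc and iron importers Slc39a8 and Slc39a14 rose with values of 3.83 and 1.45, and Hfe, a regulator of iron sensing, with 1.25. The iron regulatory protein genes Aco1 and Ireb2 had log2 fold changes of 0.77 and −0.50, the chaperones Pcbp1 and Pcbp2 of −0.15 and −0.37, and the haem exporter Flvcr1 of −0.86, none of which passed both thresholds.

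Slc25a37 (mitoferrin), which imports iron into mitochondria, and Ncoa4, the receptor that delivers ferritin for breakdown, rose but varied among RPM libraries. Slc25a37 was at 10.7, 14.2, 34.2 and 18.4 CPM in pre-RPMs and at 72.5, 71.8, 638 and 286 CPM in RPMs (log2 fold change 3.74, SE 0.65, adjusted p = 0.000236), and Ncoa4 at 12.1 to 16.7 CPM and 52.1, 51.7, 123 and 80.5 CPM. For both genes, RPM replicate 3 was the highest and replicate 4 the next, the same order as for the haemoglobin transcripts described below. Without RPM replicates 3 and 4, an alternative chosen after their levels were seen, the log2 fold changes were 1.85 and 1.81, and both genes were still called. Without RPM replicate 3 alone, Slc25a37 was at 2.83.

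**Figure D3:**
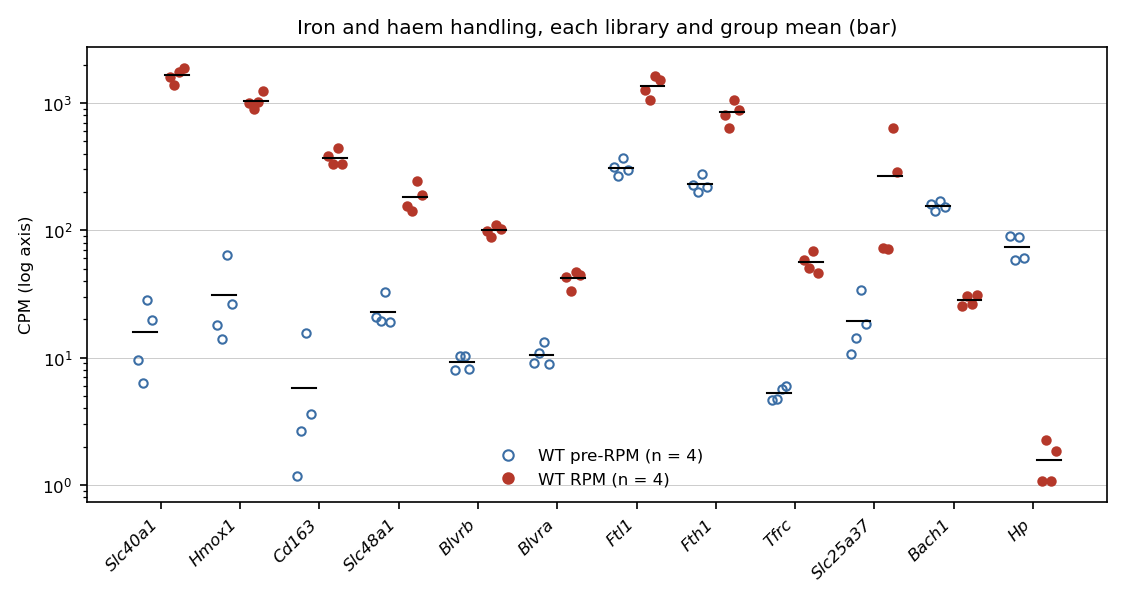
Level of 12 genes of iron and haem handling in each library (CPM, log axis). Each gene has its 4 WT pre-RPM replicates at the left as open circles and its 4 WT RPM replicates at the right as filled circles, with a line at each group mean, and Bach1 and Hp are the only genes shown that lie lower in RPMs.

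Bach1, the haem-sensitive repressor, was at 159.5, 142, 168 and 152 CPM in pre-RPMs and at 25.3, 30.3, 26.6 and 30.8 CPM in RPMs (log2 fold change −2.50, SE 0.11, adjusted p = 5.17e-10), with the groups wide apart. Nfe2l2, the gene of NRF2, which binds the same antioxidant elements as an activator, had a log2 fold change of −0.50 (SE 0.15, adjusted p = 0.0119) and was not called. Promoters of the iron and haem genes that rose were searched on both strands for TGACNNNGC, a core of the antioxidant response element bound by these factors, in RefSeq windows from 250 bases before to 50 bases after the start site (GRCm38.p6). Of the 18 genes, 11 had a promoter in the table, and 4 of them (36.4%) held the letters, namely Blvra, Hfe, Lrp1, and Slc39a8, against 15.1% of 8339 tested genes with a promoter and 12.5% of 27025 in the table. The share was 17.4% among all genes that rose and had a promoter. Among lysosomal genes that rose it was 5 of 15 (33.3%), so that these letters were not particular to the iron and haem genes. The window of Blvra is shown as far as the start site, because its match lies close to it, at position −49, with the match in capitals and read on the opposite strand.
Blvra, chr2:127070407-127070656, plus strand: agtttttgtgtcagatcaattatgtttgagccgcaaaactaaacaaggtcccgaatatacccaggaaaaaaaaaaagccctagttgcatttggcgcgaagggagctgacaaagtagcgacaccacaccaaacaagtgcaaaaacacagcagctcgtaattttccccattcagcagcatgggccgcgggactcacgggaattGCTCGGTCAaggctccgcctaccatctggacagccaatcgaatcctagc

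Transcripts of red blood cells and their precursors rose with the RPM genes and differed widely between mice, and Hbb-bs had the highest level per kilobase of all protein-coding genes tested in RPMs, at 7245 CPM per kilobase. Of 22 listed erythroid genes, 20 were tested, of which 19 rose and none fell, with a median log2 fold change of 4.36. Hbb-bs, adult beta globin, was at 5.37, 3.69, 270.5 and 51.6 CPM in pre-RPM replicates 1 to 4 and at 1057, 652, 14570 and 5979 CPM in RPM replicates 1 to 4 (log2 fold change 6.04, SE 1.32, adjusted p = 0.00156). In both groups the order of the mice was 3, 4, 1, and 2, and the highest RPM library had many times the level of the lowest. Without pre-RPM replicate 3 its log2 fold change was 8.05, without RPM replicate 3 it was 4.91, and without RPM replicates 3 and 4 it was 3.32. Alas2, the first enzyme of haem synthesis in red cell precursors, followed the same order in RPMs and was likewise highest in mice 3 and 4 in pre-RPMs, with 0.467, 1.05, 74.5 and 9.56 CPM in pre-RPMs and 172, 118, 2030 and 802 CPM in RPMs (log2 fold change 5.15, SE 1.17, adjusted p = 0.00207). Its call was lost without pre-RPM replicate 4, at 4.90, and its log2 fold change was 7.65 without pre-RPM replicate 3. The globin genes Hba-a1, Hba-a2, and Hbb-bt had log2 fold changes of 6.06, 4.31, and 5.84, and near-identical globin copies share reads, so that the split between them is uncertain. Without pre-RPM replicate 3 these became 8.05, 7.81, and 7.88. Hba-a2 lost its call on leaving out any other library except RPM replicates 1 and 2, with values from 3.51 without RPM replicate 3 to 4.23 without RPM replicate 4.

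The summed level of the erythroid list was 35.3, 33.5, 698, and 125 CPM in pre-RPM replicates 1 to 4 and 2366, 1755, 25130, and 10720 CPM in RPM replicates 1 to 4. Surface and skeleton proteins of red cells were part of it, among them the anion exchanger Slc4a1 (band 3) at 139, 169.5, 553 and 352 CPM in RPM replicates 1 to 4. Its log2 fold change was 5.04, or 6.16 without pre-RPM replicate 3. Not every member followed the order of the haemoglobins. Ermap was at 20, 21.7, 24.1 and 33.2 CPM, Kel at 16.2, 15.7, 11.3 and 16.9 CPM, and Klf1, the erythroid transcription factor, at 3.40, 4.09, 4.02 and 2.32 CPM in RPMs, and these 3 genes rose with log2 fold changes of 4.19, 3.48, and 3.62. Gata1, the main erythroid transcription factor, overlapped between groups, at 4.67, 3.16, 1.48 and 4.06 CPM and 3.19, 2.04, 1.34 and 1.62 CPM (log2 fold change −0.73, SE 0.38, adjusted p = 0.13). Whether these transcripts lay in engulfed cells, attached cells, or the macrophages was not tested.

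**Figure D4:**
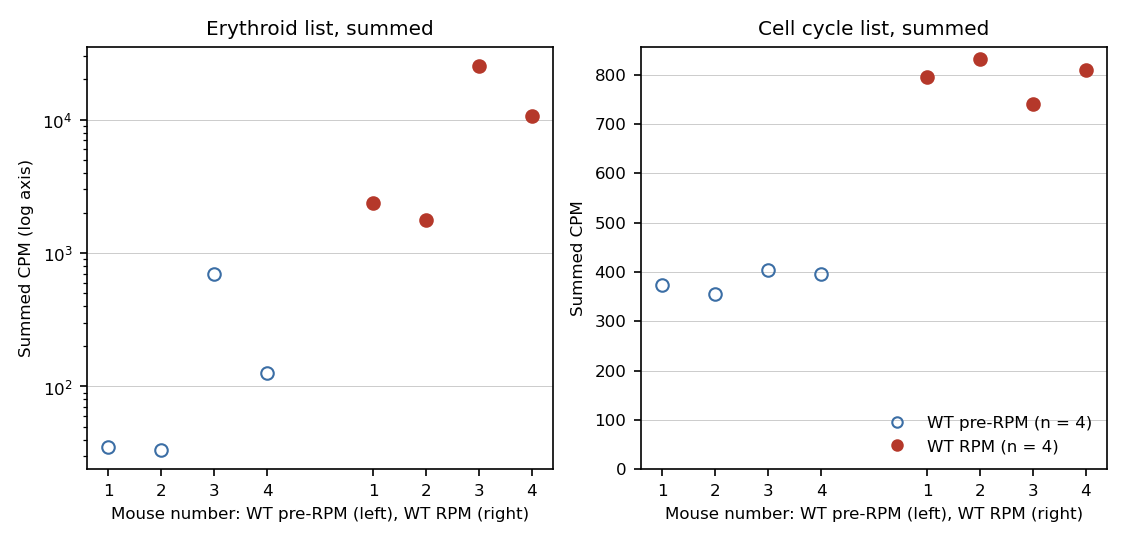
Summed level of the erythroid list (left, log axis) and of the cell cycle list (right, linear axis from 0) in each library, in CPM. The erythroid sum runs from 1755 to 25130 CPM among the 4 WT RPM libraries, and the cell cycle sum only from 741 to 832 CPM.

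Among 54 listed transcription factors of the myeloid and erythroid lineages, 47 were tested, of which 14 (29.8%) rose and 16 (34.0%) fell, both above the shares among all genes tested, with a median log2 fold change of −0.23. Maf, a factor of mature macrophages, was at 23.4, 23.2, 43.0 and 32.3 CPM in pre-RPMs and at 392, 373, 407 and 398 CPM in RPMs (log2 fold change 3.64, SE 0.19, adjusted p = 1.36e-09). Tcf7l2, a transcription factor of the Wnt pathway, rose with a log2 fold change of 4.32, from 9.11 to 12.2 to 195 to 257 CPM. The retinoid X receptor gene Rxra, which pairs with PPARγ and LXRα, rose from 48.2 ± 11.1 to 157 ± 7.93 CPM, and Id2, an inhibitor of helix-loop-helix factors, from 29.9 ± 2.48 to 109 ± 17.1 CPM. Of the MiT family, which controls lysosomal genes, Tfec and Mitf rose, with log2 fold changes of 2.33 and 1.25, whereas Tfeb and Tfe3 did not pass both thresholds, at −0.54 and 0.28.

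The factors that fell included those of monocytes and of granulocyte precursors. Klf4 went from 62.3, 64.0, 89.5 and 54.95 CPM to 7.02, 3.88, 3.75 and 4.64 CPM (log2 fold change −3.84, SE 0.21, adjusted p = 2.35e-09), and Klf2 and Nr4a1, factors known from Ly6C-low monocytes, had log2 fold changes of −2.98 and −2.64. Cebpb was at 264, 222, 255 and 214 CPM in pre-RPMs and at 46.0, 46.6, 34.1 and 51.0 CPM in RPMs (log2 fold change −2.47, SE 0.14, adjusted p = 3.94e-09), and Cebpa and Cebpd fell with log2 fold changes of −1.67 and −1.06. Cebpd missed the fold threshold without RPM replicate 2, at −0.99. Spi1, which encodes PU.1, fell from 169.9 ± 16.6 to 66.0 ± 7.94 CPM (log2 fold change −1.41, SE 0.12, adjusted p = 2.82e-07), in the opposite direction to its relative Spic. The retinoic acid receptor gene Rara fell with a value of −2.07, the runt factors Runx2 and Runx3 with −2.19 and −2.33, and the interferon regulatory factors Irf4 and Irf5 with −1.96 and −1.13. Irf8, a factor of monocytes and macrophages that RPMs need, overlapped between groups at 143 to 178 and 144 to 204 CPM (log2 fold change 0.11, SE 0.13, adjusted p = 0.489).

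Binding sites of the PU.1 and SPIC type were looked for in the promoters of the RPM markers. Of the 15 markers that rose, 10 had a promoter in the RefSeq table, and 4 (40%), those of Cd5l, Treml4, Mrc1, and Axl, held GAGGAA on either strand, against 27.1% of tested genes with a promoter and 28.3% of all promoters. The 6 letters are common, and the counts are a description. Among all genes with a promoter, 27.3% of those that rose and 31.1% of those that fell held them. The promoter of Cd5l is printed to its start site, since its gene was almost silent in pre-RPMs, with the match at position −66 in capitals, on the opposite strand.
Cd5l, chr3:87357631-87357880, plus strand: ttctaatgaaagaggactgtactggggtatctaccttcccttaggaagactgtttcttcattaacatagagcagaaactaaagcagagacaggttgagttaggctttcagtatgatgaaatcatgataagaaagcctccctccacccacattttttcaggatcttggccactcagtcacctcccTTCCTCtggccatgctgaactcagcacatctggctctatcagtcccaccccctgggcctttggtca

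Receptors for dead cells and modified lipoproteins split into a set that rose and a set that fell. Of 28 tested genes, 12 (42.9%) rose and 9 (32.1%) fell, around a median log2 fold change of 0.32. Besides Mertk, its relative Axl rose, from 15.9, 15.6, 63.0 and 33.0 CPM to 1617, 1399, 1695 and 1618 CPM (log2 fold change 5.59, SE 0.40, adjusted p = 3.82e-08), and so did Gas6, a bridging ligand for both, from 1.59 ± 0.587 to 20.9 ± 3.98 CPM (log2 fold change 3.65, SE 0.25, adjusted p = 2.70e-08). The third receptor of the family, Tyro3, was not tested for lack of counts, and Pros1, the other bridging ligand, fell from 12.9 to 18.9 to 0.268 to 1.06 CPM (log2 fold change −4.25, SE 0.29, adjusted p = 2.57e-08). Stab2 and Timd4, which bind phosphatidylserine on dying cells, rose with log2 fold changes of 6.89 and 3.41. The cholesterol exporter Abca1 rose from 18.1 ± 2.13 to 141 ± 13.7 CPM, and the scavenger receptor Marco, which was barely detected in pre-RPMs, reached 4.89 to 7.57 CPM (log2 fold change 2.55, SE 0.32, adjusted p = 1.18e-05). Msr1, Colec12, Olr1, and Trem2, also receptors for modified lipids or lipoproteins, fell, with log2 fold changes of −5.28, −5.06, −5.40, and −4.39. Msr1 was at −6.16 without RPM replicate 2, Trem2 at −5.38 without RPM replicate 3, and Stab2 at 7.97 without pre-RPM replicate 3. Cd36 overlapped between groups at 13.3 to 26.6 and 10.4 to 32.5 CPM.

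Complement genes divided in the same manner, with 6 of 15 tested (40%) higher, 6 lower, and a median of 0.48. The 3 chains of C1q rose together. C1qa was at 7.47, 4.48, 20.9 and 3.82 CPM in pre-RPMs and at 601, 476, 678 and 538 CPM in RPMs (log2 fold change 5.92, SE 0.41, adjusted p = 2.88e-08), C1qb had a log2 fold change of 6.28 (SE 0.58, adjusted p = 5.85e-07), and C1qc one of 6.43 (SE 0.64, adjusted p = 1.07e-06). In pre-RPMs, the library of mouse 3 was the highest for all 3 genes, and without it their values were 6.70, 8.20, and 8.59. C6, a part of the membrane attack complex, rose from 0, 0, 4.67 and 0.717 CPM to 142, 124, 158 and 149.6 CPM, with a log2 fold change of 6.66 or, without pre-RPM replicate 3, 8.98, and properdin (Cfp), which stabilises the alternative pathway convertase, from 15.1 ± 6.41 to 282 ± 24.3 CPM. C3, the central component, fell from 245, 145, 319 and 176 CPM to 28.9, 30.1, 36.8 and 30.8 CPM (log2 fold change −2.85, SE 0.22, adjusted p = 7.52e-08). The receptors for its fragments and for C5a, C3ar1 and C5ar1, fell with values of −4.09 and −3.40.

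C-type lectins and Siglecs, receptors for glycans, had 8 of 27 tested genes higher (29.6%), 6 lower (22.2%), and a median log2 fold change of −0.18. The mannose receptor Mrc1 rose from 15.4, 11.6, 34.9 and 16.01 CPM to 977, 819.8, 1215 and 1158 CPM (log2 fold change 5.70, SE 0.31, adjusted p = 2.74e-09), and Clec4n (Dectin-2), a receptor for fungal mannans, from 4.27 ± 1.77 to 101 ± 4.37 CPM (log2 fold change 4.50, SE 0.18, adjusted p = 2.31e-10). Siglece rose by 3.38 on the log2 scale, and Sirpa, the receptor for the CD47 signal on living cells, from 348 ± 35.6 to 792 ± 46.8 CPM, whereas Cd47 itself had a value of −0.38 and was not called. Clec7a (Dectin-1), a receptor for beta-glucan, fell from 196, 226, 205 and 226 CPM to 7.02, 10.4, 4.02 and 5.10 CPM (log2 fold change −5.02, SE 0.21, adjusted p = 2.84e-10), and Clec4e (Mincle) with a value of −4.93, or −6.16 without RPM replicate 2. Siglec1, known from marginal metallophilic macrophages, was at 17.7 to 27.1 CPM and 33.0 to 43.5 CPM (log2 fold change 0.78, SE 0.15, adjusted p = 0.000585).

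Of 7 tested genes for receptors of immunoglobulin G and their signalling, 1 rose and 1 fell, with a median of 0.05. Fcgr2b, the inhibitory receptor for immunoglobulin G, was at 83.1, 88.5, 83.9 and 109 CPM in pre-RPMs and at 9.36, 12.5, 12.1 and 9.04 CPM in RPMs (log2 fold change −3.13, SE 0.15, adjusted p = 5.87e-10), while the activating receptors Fcgr1, Fcgr3, and Fcgr4 had log2 fold changes of 0.75, −0.16, and 0.63 and were not called. Their shared signalling chain Fcer1g and the kinase Syk overlapped between groups, at 0.05 and −0.09. The neonatal Fc receptor gene Fcgrt, which recycles immunoglobulin G and albumin, rose from 56.8 ± 2.18 to 227 ± 25.5 CPM (log2 fold change 1.95, SE 0.12, adjusted p = 7.97e-09).

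Lysosomal genes rose in part. Of 67 tested, 20 (29.9%) rose and 4 (5.97%) fell, with a median log2 fold change of 0.43, and the list as a whole went from 5266 to 6971 CPM up to 8331 to 10450 CPM. Cathepsin B, Ctsb, had the largest gain in level, from 343, 295, 422 and 275 CPM to 1934, 1556, 2205 and 2083 CPM (log2 fold change 2.497, SE 0.18, adjusted p = 3.43e-08). Cathepsin D, Ctsd, rose from 43.2, 33.2, 37.9 and 30.8 CPM to 192, 158, 229 and 246 CPM (log2 fold change 2.46, SE 0.16, adjusted p = 1.65e-08), cathepsin L, Ctsl, from 12.2 ± 2.32 to 41.1 ± 5.40 CPM, and cathepsin F, Ctsf, from 1.27 ± 0.585 to 17.7 ± 1.64 CPM. Legumain (Lgmn), the phospholipase gene Pla2g15, and the acid phosphatases Acp2 and Acp5 had log2 fold changes of 2.68, 3.28, 3.40, and 3.56. Acid lipase (Lipa), which frees cholesterol from engulfed lipoproteins, rose from 52.3 ± 6.97 to 208 ± 22.5 CPM, and Dnase2a, which digests the DNA of engulfed nuclei, from 17.9 ± 3.002 to 93.3 ± 7.84 CPM. Cathepsin S and saposin, among the most abundant members, overlapped between groups, Ctss at 484 to 581 and 496 to 735 CPM and Psap at 1138 to 1933 and 1291 to 1543 CPM. Ctsh, Gm2a, Galns, and Arsb fell, Arsb furthest, from 98.7 ± 13.1 to 10.3 ± 4.33 CPM (log2 fold change −3.28, SE 0.21, adjusted p = 1.21e-08).

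Of the 20 lysosomal genes that rose, 15 had a promoter in the RefSeq table, and 5 of them (33.3%), those of Ctsd, Ctsf, Ctsl, Gaa, and Naglu, held the E-box core CACGTG, against 10.8% of tested genes with a promoter and 7.24% of all promoters. The longer element GTCACGTG, which contains this core and is known from lysosomal genes, was found in 2 of the 15 (13.3%), Ctsd and Naglu, against 4.62% of tested genes. No factor binding was measured here. The promoters of Ctsd and Ctsl are printed to the start site because the first holds the longer element and the second only the core, with the capitals marking the core and, in Ctsd, the 2 bases that complete the longer element. The window of Ctsl lies wholly inside the annotated gene, whose first base on the minus strand is position 64370890. It therefore precedes a start site within the gene.
Ctsd, chr7:142387828-142388077, minus strand: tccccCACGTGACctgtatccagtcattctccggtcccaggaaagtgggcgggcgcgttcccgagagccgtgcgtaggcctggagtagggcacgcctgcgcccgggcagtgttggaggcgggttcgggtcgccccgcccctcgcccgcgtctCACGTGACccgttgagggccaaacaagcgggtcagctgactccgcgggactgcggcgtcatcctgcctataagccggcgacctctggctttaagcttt
Ctsl, chr13:64370521-64370770, minus strand: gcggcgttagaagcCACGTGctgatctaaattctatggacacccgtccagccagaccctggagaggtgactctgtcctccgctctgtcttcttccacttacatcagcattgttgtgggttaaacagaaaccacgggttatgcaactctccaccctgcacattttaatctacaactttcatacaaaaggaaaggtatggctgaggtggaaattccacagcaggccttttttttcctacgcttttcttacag

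Genes of antigen presentation changed little. Of 14 tested genes listed for MHC class II presentation, 2 rose, the costimulatory ligands Cd86 and Cd80, and 1 fell, the transactivator Ciita, and the median log2 fold change of the list was −0.03. Cd86 was at 10.3, 9.22, 14.3 and 13.9 CPM in pre-RPMs and at 102, 90.6, 109 and 97.2 CPM in RPMs (log2 fold change 3.01, SE 0.14, adjusted p = 6.99e-10), Cd80 had a log2 fold change of 1.56 (SE 0.23, adjusted p = 4.95e-05), and Ciita one of −1.18 (SE 0.12, adjusted p = 1.39e-06). H2-Ab1, H2-Aa, and H2-Eb1, chains of the class II molecules, overlapped between groups, with H2-Ab1 at 436, 367, 434 and 298 CPM and 427, 362, 591 and 327 CPM (log2 fold change 0.11, SE 0.19, adjusted p = 0.661), and the invariant chain Cd74 had a value of 0.60 (SE 0.20, adjusted p = 0.0251). Of 18 tested genes for class I presentation none was called, the median was −0.13, and B2m, H2-K1, and H2-D1 had values of 0.26, 0.23, and −0.21.

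Cytokine receptors divided, with 8 of 38 tested (21.1%) higher, 14 (36.8%) lower, and a median log2 fold change of −0.61. Csf1r, the receptor for the growth factor on which macrophages depend, rose from 456, 350.2, 547 and 388 CPM to 1544, 1319, 1620 and 1386 CPM (log2 fold change 1.71, SE 0.16, adjusted p = 6.37e-07), whereas its ligand gene Csf1 fell from 12.4 ± 4.92 to 1.96 ± 0.856 CPM (log2 fold change −2.71, SE 0.36, adjusted p = 2.27e-05). The cytokine receptor genes Csf3r, Csf2rb, and Csf2rb2 fell, with log2 fold changes of −1.58, −1.42, and −1.55. Both chains of the interferon gamma receptor fell, Ifngr1 at −1.11 and Ifngr2 at −1.20, and Il17ra fell from 335, 329.6, 377 and 333 CPM to 41.5, 46.6, 29.5 and 38.3 CPM (log2 fold change −3.18, SE 0.15, adjusted p = 5.65e-10). Tgfbr2, the TGF-β receptor II gene, rose from 69.9 ± 9.94 to 196 ± 17.2 CPM, whereas Tgfbr1 had a value of −0.48 and was not called. The receptor for interleukin 1, Il1r1, was close to the floor in pre-RPMs and at 11.3 to 19.0 CPM in RPMs (log2 fold change 4.73, SE 0.48, adjusted p = 1.41e-06), with 5.65 without pre-RPM replicate 3. The receptor for interleukin 33, Il1rl1, was low in both groups, at 4.20, 3.95, 3.20 and 5.73 CPM and 1.06, 1.84, 1.88 and 3.01 CPM (log2 fold change −1.18, SE 0.33, adjusted p = 0.00869). Its call was lost on leaving out any library except pre-RPM replicate 3 and RPM replicate 4, at log2 fold changes between −1.22 (without pre-RPM replicate 2) and −0.96 (without RPM replicate 1).

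Among sensors of microbial products and genes of the inflammasome, 6 of 28 tested genes (21.4%) rose and 6 fell, with a median of −0.13. The lipopolysaccharide receptor genes rose together, Tlr4 from 8.64, 9.22, 15.98 and 10.3 CPM to 84.7, 69.9, 99.5 and 86.0 CPM (log2 fold change 2.90, SE 0.18, adjusted p = 8.87e-09), its coreceptor Cd14 from 4.97 ± 0.495 to 53.5 ± 7.43 CPM, and Ly96 (MD-2) from 2.19 ± 0.945 to 7.09 ± 2.07 CPM. Without RPM replicates 3 and 4, Ly96 was not called, at 1.24. The shared adaptor Myd88 fell from 54.2 ± 7.41 to 22.8 ± 2.89 CPM (log2 fold change −1.29, SE 0.13, adjusted p = 1.28e-06). Of the interleukin 1 family, Il18 rose from 4.88 ± 2.21 to 54.3 ± 9.77 CPM, with its antagonist Il18bp at a log2 fold change of 1.97, and Il1a had 2 counts over the 4 pre-RPM libraries and 7.66, 12.5, 12.1 and 15.1 CPM in RPM replicates 1 to 4. Il1rn, the interleukin 1 receptor antagonist, fell from 9.05 ± 2.68 to 0.222 ± 0.257 CPM, and Il1b overlapped between groups at 20.3 to 28.7 and 15.8 to 34.2 CPM. Nlrp3, an inflammasome sensor, varied widely, at 30.6, 20.6, 37.4 and 92.9 CPM and 295, 121, 38.9 and 63.8 CPM (log2 fold change 1.47, SE 0.54, adjusted p = 0.036), and was not called. It was called without pre-RPM replicate 4, at 2.08, without RPM replicate 3, at 1.77, and without RPM replicates 3 and 4, at 2.14, while its log2 fold change was 0.69 without RPM replicate 1. The pyroptosis genes Gsdmd and Casp4 fell with values of −1.15 and −1.60.

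Receptors that guide monocytes from the blood fell steeply, and of 25 tested chemokine and trafficking receptors 12 (48.0%) fell while 6 (24%) rose, with a median log2 fold change of −0.84. Ccr2, which brings monocytes out of the bone marrow, was at 595, 484, 562 and 502 CPM in pre-RPMs and at 9.15, 14.3, 2.15 and 3.94 CPM in RPMs (log2 fold change −6.18, SE 0.38, adjusted p = 9.07e-09), and Cx3cr1 at 181, 149, 204 and 146 CPM and 2.55, 4.50, 2.41 and 1.39 CPM (log2 fold change −5.97, SE 0.23, adjusted p = 1.60e-10). The leukotriene B4 receptor gene Ltb4r1, the retention receptor gene Cxcr4, and S1pr5 fell with log2 fold changes of −5.99, −2.35, and −1.75, and Ltb4r1 was at −6.86 without RPM replicate 2. Those that rose included the formyl peptide receptor gene Fpr1, at 5.90 (SE 0.37, adjusted p = 1.10e-08), and the purine receptors P2ry13 and P2ry12, at 5.32 and 3.90. Ccr3, known as an eosinophil chemokine receptor, rose from 52.8, 40.6, 19.7 and 32.7 CPM to 315, 269, 394 and 269.7 CPM (log2 fold change 3.05, SE 0.25, adjusted p = 1.44e-07). Of other eosinophil genes, Ear2 overlapped at 16.5 to 23.6 and 19.2 to 28.2 CPM, Prg2 had a value of −0.96 and was called as lower only without pre-RPM replicate 1 or 4, at −1.12 and −1.13, and Alox15 fell with −4.82, or −5.95 without RPM replicate 2.

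Among chemokines and other secreted factors, 10 of 22 tested genes (45.5%) rose and 7 (31.8%) fell, with a median of 0.55. Igf1, insulin-like growth factor 1, went from 0.234, 1.32, 6.39 and 2.87 CPM to 159, 152, 212 and 195 CPM (log2 fold change 5.998, SE 0.38, adjusted p = 1.06e-08), and its log2 fold change was 6.85 without pre-RPM replicate 3. That library also set Pdgfc and Vegfb, given next, which were at 6.25 and 3.80 without it. The platelet-derived growth factor genes Pdgfc, Pdgfa, and Pdgfb rose with values of 5.45, 3.20, and 1.25, Vegfb with 3.05, and the chemokine gene Ccl24 from 7.51 ± 1.57 to 54.4 ± 8.74 CPM. Lipoprotein lipase (Lpl) rose from 21.3 ± 7.59 to 257 ± 17.1 CPM (log2 fold change 3.55, SE 0.19, adjusted p = 2.78e-09). Ccl6 and Ccl9, neighbouring chemokine genes on chromosome 11, fell together, with values of −3.50 and −6.58, and Tnf and Hgf fell with −1.32 and −1.70. The call of Tnf was lost without pre-RPM replicate 3, at −1.12. Apoe, one of the more abundant secreted products, overlapped at 601 to 816 and 610.1 to 824 CPM (log2 fold change −0.03, SE 0.15, adjusted p = 0.9).

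Of 29 tested integrin and adhesion genes, 7 (24.1%) rose and 13 (44.8%) fell, with a median of −0.43. Itgad, the alpha D subunit, was at 0.934, 1.32, 24.4 and 4.30 CPM in pre-RPMs and at 862, 743, 840.1 and 877 CPM in RPMs (log2 fold change 6.70, SE 0.67, adjusted p = 1.13e-06), and at a log2 fold change of 8.49 without pre-RPM replicate 3. Itga9 rose from 8.40, 5.01, 9.59 and 8.36 CPM to 349, 276, 312 and 340.4 CPM (log2 fold change 5.29, SE 0.18, adjusted p = 9.70e-11), with little spread. Cadm1 and Cd81, cell surface proteins, and Pecam1, which blood vessels also make, rose with values of 5.98, 5.24, and 3.02. Itgal, the alpha chain of LFA-1, fell from 404, 340.4, 459 and 302 CPM to 19.1, 30.1, 8.58 and 7.88 CPM (log2 fold change −4.54, SE 0.34, adjusted p = 7.71e-08), and Itga4, which pairs with Itgb1 as a receptor for VCAM-1, from 575 ± 24.1 to 127 ± 27.6 CPM (log2 fold change −2.22, SE 0.15, adjusted p = 2.99e-08). The common chain Itgb2 overlapped at 355 to 491 and 380.3 to 453 CPM, and Itgb1 at 120.1 to 149.5 and 134 to 166 CPM.

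Coagulation genes and genes of granule contents were mostly lower in RPMs. Of 13 tested coagulation genes 7 (53.8%) fell and 3 rose, with a median of −3.63. F10 fell from 17.5 ± 0.348 to 0.236 ± 0.278 CPM, F5 from 71.0 ± 19.4 to 1.93 ± 2.05 CPM, and the thrombin receptor thrombomodulin, Thbd, from 31.3 ± 3.18 to 2.502 ± 1.53 CPM (log2 fold change −3.63, SE 0.25, adjusted p = 2.89e-08), with F5 at a log2 fold change of −5.16 and at −6.24 without RPM replicate 2. Of 25 tested S100 and granule genes 23 (92.0%) fell and 1 rose, with a median of −3.63. S100a6 went from 118, 131, 119 and 108 CPM to 4.47, 3.48, 1.61 and 1.85 CPM (log2 fold change −5.37, SE 0.21, adjusted p = 1.51e-10), and the annexin gene Anxa1 from 85.3 ± 12.3 to 2.43 ± 1.45 CPM. The single rise was Slpi, an inhibitor of neutrophil proteases, from 12.8, 10.5, 15.5 and 13.6 CPM to 127, 108, 149 and 117 CPM (log2 fold change 3.20, SE 0.15, adjusted p = 5.30e-10). The granule transcripts Ngp, Ltf, and Camp, which neutrophil precursors make, were highest in the pre-RPM library of mouse 3, at 26.9, 15.6, 45.7 and 8.60 CPM, 18.2, 7.38, 32.7 and 8.12 CPM, and 10.7, 9.75, 19.7 and 12.2 CPM in pre-RPM replicates 1 to 4, and fell with values of −3.52, −3.63, and −3.85, where Camp was at −4.55 without RPM replicate 1.

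Few genes of oxidative phosphorylation passed both thresholds, whereas most ribosomal protein genes passed the adjusted p, largely at a smaller fold. Of 73 tested nuclear genes for oxidative phosphorylation, 2 rose and 3 fell, with a median log2 fold change of −0.22. Of the mitochondrially encoded genes, 7 of 13 were tested, 1 was called, mt-Cytb, from 593 ± 60.2 to 1275 ± 223 CPM (log2 fold change 1.06, SE 0.16, adjusted p = 5.56e-05), and the median was 0.93, with the other 6 tested past the adjusted p at a smaller fold. Their summed level was 3562 to 4000 CPM in pre-RPMs and 6164 to 7847 CPM in RPMs. The call of mt-Cytb was lost without pre-RPM replicate 3, RPM replicate 3, or RPM replicate 4, each at a log2 fold change of 0.99. The 6 not tested, including mt-Co2, mt-Co3, and mt-Atp6, had almost no counts in any library, and the reason was not tested. Of 81 tested cytosolic ribosomal protein genes none rose and 11 (13.6%) fell, against 10.7% of all genes tested. The median was −0.67, and 51 more passed the adjusted p at a smaller fold. For example, Rps27a went from 204 ± 29.1 to 77.9 ± 10.8 CPM and Rplp0 from 254 ± 25.6 to 105 ± 8.27 CPM. Copies and pseudogenes of these genes share reads.

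Of 31 tested genes of glycolysis and the pentose phosphate pathway, 12 (38.7%) fell and 2 rose, with a median of −0.66. The glucose and lactate transporters Slc2a3, Slc2a6, and Slc16a3 fell with log2 fold changes of −1.43, −4.43, and −3.94, hexokinases Hk1 and Hk2 with −1.55 and −1.32, and pyruvate kinase Pkm from 252, 183, 261 and 196 CPM to 84.2, 83.0, 97.9 and 89.7 CPM (log2 fold change −1.38, SE 0.14, adjusted p = 1.13e-06). The exception among hexokinases was Hk3, which rose from 22.4 ± 4.80 to 71.5 ± 8.01 CPM (log2 fold change 1.62, SE 0.15, adjusted p = 4.83e-07). In sterol and lipid metabolism, 10 of 44 tested genes (22.7%) rose and 4 fell, with a median of −0.20. The cholesterol exporters Abca1 and Abcg1, both targets of Nr1h3, rose with values of 2.91 and 2.31, and another target, the ubiquitin ligase gene Mylip, with 1.43. Fads1, a fatty acid desaturase gene, rose from 2.43 ± 1.12 to 31.3 ± 2.29 CPM.

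Antioxidant genes rose in 14 of 34 tested cases (41.2%) and fell in 4 (11.8%), with a median of 0.48. Outside the iron genes, the glutathione synthesis genes Gclm and Gclc had log2 fold changes of 3.14 and 1.27, and the thioredoxin system genes Txnrd1, Txn1, and Srxn1 of 2.05, 1.40, and 1.71. Txnrd1 was at 17.5, 14.8, 14.8 and 12.9 CPM in pre-RPMs and at 61.7, 60.5, 72.2 and 63.1 CPM in RPMs (log2 fold change 2.05, SE 0.12, adjusted p = 6.45e-09). Prdx2 and Cat, which are abundant in red cells, rose with the order of the haemoglobins, at 55.1, 45.2, 147 and 95.8 CPM and 73.8, 69.3, 187 and 116 CPM in RPM replicates 1 to 4. Their log2 fold changes were 2.20 and 1.07, and without RPM replicates 3 and 4 they were 1.43 and 0.43, the latter no longer called. Cat was also not called with the mouse number as a block (log2 fold change 0.97), without pre-RPM replicate 2 (1.045), without pre-RPM replicate 4 (1.004), or without RPM replicate 3 (0.70). Prdx5 fell from 99.8 ± 14.6 to 17.3 ± 1.90 CPM (log2 fold change −2.57, SE 0.13, adjusted p = 1.65e-09).

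Of 36 tested interferon-stimulated genes, 19 (52.8%) fell and 2 rose, with a median log2 fold change of −1.17. Oasl2 was at 22.2, 29.8, 32.7 and 32.7 CPM in pre-RPMs and at 0.213, 1.84, 2.41 and 0.232 CPM in RPMs (log2 fold change −4.70, SE 0.36, adjusted p = 8.32e-08), Ifitm3, which blocks virus entry, at 141, 128, 159.6 and 151 CPM and 19.6, 20.9, 28.7 and 24.1 CPM (log2 fold change −2.69, SE 0.14, adjusted p = 1.28e-09), and Irf7 had a value of −1.20. The 2 rises were Rsad2 and Isg20, which were at 47.9, 36.4, 408 and 163 CPM and 11.9, 6.34, 98.4 and 44.1 CPM in RPM replicates 1 to 4, again highest in mouse 3 and next in mouse 4. Their log2 fold changes of 3.55 and 3.15 became 1.59 and 1.03 without RPM replicates 3 and 4, and Isg20, whose groups overlap, was then not called. Without RPM replicate 3 alone they were 2.56 and 2.20, and the call of Isg20 was lost without pre-RPM replicate 1, 2, or 4, at 3.03, 2.98, and 3.06. Genes of the immediate early response, which are also induced when cells are handled, fell in 15 of 21 tested cases (71.4%) and rose in none, with a median of −1.34. Fos went from 12.1, 12.1, 13.5 and 17.4 CPM to 1.49, 1.43, 2.15 and 3.25 CPM (log2 fold change −2.78, SE 0.27, adjusted p = 7.55e-07), Junb from 62.9 ± 4.40 to 20.9 ± 1.81 CPM, and Atf3 from 16.1 ± 4.80 to 2.41 ± 1.02 CPM. The part of cell handling in this difference was not tested.

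Cell cycle genes formed a list in which rises prevailed. Of 36 tested, 21 (58.3%) rose and 2 fell, with a median log2 fold change of 1.63. Mki67, the gene of the proliferation marker Ki-67, was at 11.7, 9.22, 22.9 and 18.6 CPM in pre-RPMs and at 91.0, 143, 103 and 149 CPM in RPMs (log2 fold change 2.91, SE 0.24, adjusted p = 1.85e-07), and Top2a, a topoisomerase of dividing cells, at 9.34, 8.17, 8.12 and 6.93 CPM and 24.9, 32.5, 27.4 and 33.2 CPM (log2 fold change 1.81, SE 0.15, adjusted p = 2.41e-07). Cyclin D genes went apart, Ccnd1 and Ccnd2 upwards, with values of 3.64 and 1.55, and Ccnd3 downwards, with −1.82. The cell cycle inhibitor Cdkn1a fell from 5.39 ± 1.80 to 0.539 ± 0.552 CPM, with a log2 fold change of −3.24 or, without RPM replicate 1, −4.05. The summed level of the list was 374, 356, 404, and 396 CPM in pre-RPM replicates 1 to 4 and 796, 832, 741, and 810 CPM in RPM replicates 1 to 4, so that the mice ranked as for the haemoglobins in pre-RPMs but not in RPMs. In RPMs single members did, such as Ube2c and Nusap1, at 6.59, 5.52, 21.5 and 14.4 CPM and 9.15, 6.54, 29.2 and 18.8 CPM in RPMs, and their log2 fold changes were 3.50 and 3.28, or 2.54 and 2.29 without RPM replicates 3 and 4. Plk1, a mitotic kinase, overlapped between groups, at 1.17, 0.790, 6.15 and 32.3 CPM and 143, 53.0, 8.85 and 23.4 CPM, and was not called (log2 fold change 2.45, SE 0.84, adjusted p = 0.0254). It was called without pre-RPM replicate 4, at 4.34, without RPM replicate 3, at 2.80, and without RPM replicates 3 and 4, at 3.21. Myc rose from 3.42 ± 0.770 to 23.8 ± 4.57 CPM (log2 fold change 2.75, SE 0.21, adjusted p = 8.57e-08).

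**Figure D5:**
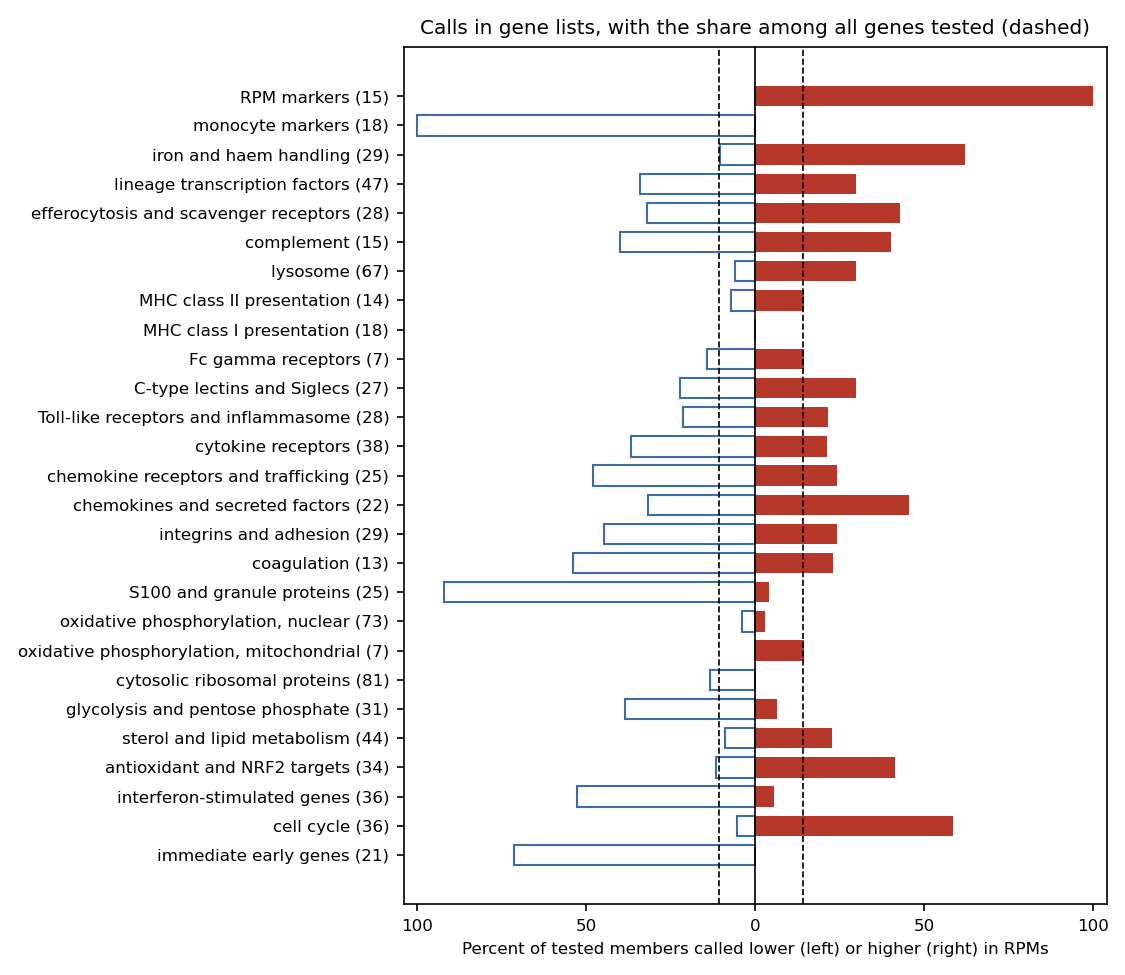
Percent of tested members called higher (right, filled) and lower (left, open) in RPMs for 27 gene lists, with the number tested after each name. Dashed lines give the background among all genes tested, 14.0% higher and 10.7% lower, and bars start at 0.

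Lists of other blood cells differed in level and direction. Of 10 tested B cell genes none was called, and their sum was 75.6 to 102 CPM in pre-RPMs and 49.9 to 173 CPM in RPMs. Of 5 tested T cell genes 3 rose, namely Cd4, Cd3e, and Cd3g. Cd4, which some macrophages also make, was at 31.1, 26.2, 23.9 and 29.7 CPM in RPM replicates 1 to 4, while Cd3e, the more specific of these, was at 17.7, 18.6, 6.17 and 6.49 CPM, higher in the libraries of mice 1 and 2. Of 7 tested natural killer cell genes 4 fell and none rose, Gzma from 46.8 ± 19.1 to 7.46 ± 4.01 CPM and Ncr1 from 18.8 ± 3.68 to 3.47 ± 2.21 CPM. All 9 tested neutrophil genes fell, with a sum of 315 to 395 CPM in pre-RPMs and 49.6 to 63.0 CPM in RPMs, though Ly6g, which the gate kept low, was not tested. Of plasma cell genes, whose sum was 323 to 525 and 152 to 319 CPM, 1 of 5 fell, Igha, from 178 ± 69.9 to 22.6 ± 13.02 CPM. Of 3 tested basophil and mast cell genes Gata2 and Hdc fell, both highest in the pre-RPM library of mouse 3, at 9.34, 4.74, 23.6 and 12.2 CPM and 3.50, 2.90, 14.8 and 6.69 CPM. Their log2 fold changes were −3.01 and −4.08, the latter −4.82 without RPM replicate 4.

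For dendritic cells, 1 of 8 tested genes rose, Zbtb46, with a log2 fold change of 1.44, and 3 fell, Flt3, Cd209a, and Clec10a, with −2.39, −4.67, and −4.37, where Cd209a was at −5.29 without RPM replicate 2. Of 4 tested eosinophil genes 1 rose and 1 fell, Ccr3 and Alox15 above, and the sum of the list was 80.4 to 167 CPM in pre-RPMs and 295 to 429 CPM in RPMs. All 4 tested endothelial genes rose, namely Stab2, Pecam1, Eng, and Vwf, with values of 6.89, 3.02, 1.55, and 1.23, but the defining endothelial genes Cdh5 and Kdr had too few counts to be tested. Of 2 tested megakaryocyte genes 1, Vwf, rose and 1, Itga2b, fell. The log2 fold change of Itga2b was −1.13, and its call was lost with the mouse number as a block (log2 fold change −1.13) and on leaving out any library except pre-RPM replicate 1 and RPM replicate 2, with values between −1.21 (without RPM replicate 1) and −0.96 (without RPM replicate 3). The only tested stromal gene, Pdgfra, was not called. Stab2 and Pecam1 were each at similar levels in the 4 RPM libraries, at 204, 178, 192 and 223 CPM and 116, 111, 132 and 129 CPM. The part of other cells in the results above was not tested, beyond the values given.

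The same step was compared in the 8 libraries labelled Il1rl1-/-, which come from other mice. Il1rl1, the targeted gene, was at 11.9, 12.9, 12.5, and 12.2 CPM in pre-RPM replicates 1 to 4 with that label, above the 3.20 to 5.73 CPM of WT pre-RPMs, and at 0.225, 1.15, 0.661, and 1.28 CPM in RPM replicates 1 to 4 against 1.06 to 3.01 CPM in WT. Counts were summed over the exons of the gene, and which exons the reads came from was not examined. The reason for the higher pre-RPM levels was not tested, and the libraries are named only by their label. Gata2 was at 1.45 ± 0.714 CPM (SD, n = 4) in pre-RPMs with that label and at 12.5 ± 8.03 CPM in WT pre-RPMs, a difference that was not tested. Between pre-RPMs and RPMs with that label, 1658 of 11437 tested genes (14.5%) were higher in RPMs and 1315 (11.5%) were lower. Of the 1571 rises in WT, 1326 were also called there, which is 84.4% of the WT list and 80.0% of the other, and of the 1205 falls 1041 were also called, 86.4% and 79.2%. No gene was called in opposite directions. Spic had a log2 fold change of 5.05 in those libraries, Slc40a1 of 7.99, Hmox1 of 6.06, Mertk of 9.60, Lyz2 of −7.51, and Bach1 of −2.36, beside 4.52, 6.65, 5.03, 7.85, −6.56, and −2.50 in WT.

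The difference between the steps was tested directly as an interaction, with 13 of 12150 genes (0.107%) past an adjusted p of 0.05 in edgeR's test, and 914 at an unadjusted p under 0.05. With the replicate number as a block, 24 genes passed. Equal replicate numbers under the WT and Il1rl1-/- labels stand for different mice, so that this block does not match animals between the labels. Nrp2, a receptor for semaphorins, fell in WT, with −2.74, and had a log2 fold change of −0.04 in the libraries labelled Il1rl1-/- (difference, Il1rl1-/- label minus WT, 2.72, adjusted p = 0.00118). S100a8 and S100a9 fell in both, further in the libraries labelled Il1rl1-/-, with log2 fold changes of −6.94 and −5.90 against −3.19 and −2.65 in WT. Abca1 rose in both, with 3.87 against 2.91 (difference 0.98, adjusted p = 0.00972). Il1rl1 was also among the 13, with −3.87 against −1.18, and the other 8 were Snx9, Pou6f1, Adam23, Gabbr1, Nck2, Bank1, Arhgap10, and Adcy3. Il1rl1, Nck2, Nrp2, and Adam23 lie on chromosome 1, with starts at 40429570, 43444579, 62703285, and 63445891. Whether the differences of Nck2, Nrp2, and Adam23 come with sequence linked to the targeted gene was not tested.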

How the data were processed

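RNA of sorted splenic cells was sequenced by the study in 24 libraries, of which the 4 WT pre-RPM and 4 WT RPM libraries enter the main comparison. The other 24 samples of the series were not analysed here. The authors deposited raw counts of read pairs per gene name for each library, made, according to the file headers and the study's methods, with cutadapt, STAR 2.5.1, and featureCounts 1.6.2 counting the reverse strand over exons, on GRCm38 with Ensembl release 95. The submitters' processing notes list cutadapt 2.8, Trim Galore 0.50, Bowtie2 2.3.5, and STAR 2.5.1 and name GRCh38 as build, whereas the headers of these count files name GRCm38, which is used here. Of 54735 gene names, 54069 matched a single Ensembl identifier in the file.

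Groups came from the submitters' labels. Genes passing filterByExpr were tested with edgeR 4.0.16 (R 4.3.3) by the quasi-likelihood F test after TMM scaling, with Benjamini-Hochberg adjustment over all genes tested and a call at an adjusted p under 0.01 and a log2 fold change beyond 1. SE is the log2 fold change divided by the square root of F. The scripts were tested on simulated data. The interaction used the same test on 16 libraries with an adjusted p under 0.05. DESeq2 1.42.0, RLE factors, library totals, other filters, glmTreat, all 24 libraries in a single fit, counts without Gm42418, a block of mouse numbers, and fits without single libraries were alternatives. CPM shown are on TMM scaling over 24 libraries. Group folds with 0 counts used a floor of 3 counts over 4 libraries. Within each group, bulk libraries from separate mice are the replicates, no pair of libraries agreed within sampling noise, and intervals cover counting error only.

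The labels give the same mouse numbers in both WT groups and each sample comes from a single mouse, so that same-numbered libraries were taken as one animal. Deviations from the group means correlated at 0.0802 to 0.167 across 11239 genes between libraries of the same number, and at −0.15 to 0.0394 otherwise, and 4 of 4 libraries correlated best with their own number. The study's methods name no block, so the main fit has none.

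Genes were named by rule, as, among called genes, the 15 largest rises and falls with non-overlapping groups and a mean log2 CPM of at least 1, the 8 largest differences in mean level in each direction, and members of 39 gene lists. A few genes that the rule would name are not reported here. These lists and the comparison were chosen with earlier results of these data known. Promoters are RefSeq windows on GRCm38.p6. Each gene was searched in the first promoter listed for its symbol only, and 4163 of 27025 symbols had several. Overlapping genes and near-identical copies can share reads.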

Additional observations from a re-analysis of the deposited data

Results flagged for a closer look

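Of 78 groups of 4 libraries examined for summed list levels, 1 had a sample far from the other 3 by Dixon's criterion, and of 147 for single genes, 8 had one. Chance alone meets this criterion in about 1 of 20 groups. The single genes were 77 key genes and not all those named above. They come from the same libraries and are not independent, so that no verdict on chance is drawn from these counts. Most of the flagged levels named here were in the pre-RPM library of mouse 3. Its summed erythroid level was 698 CPM against 33.5 to 125 CPM in the other 3 pre-RPM libraries, and Alas2 was at 74.5 CPM against 0.467 to 9.56. The same library had 24.4 CPM of the integrin gene Itgad against 0.934 to 4.30, 4.67 CPM of complement C6 against 0 to 0.717, 32.5 CPM of the haem transporter gene Slc48a1 against 18.9 to 21.0, 23.9 CPM of peroxiredoxin 2 (Prdx2) against 15.3 to 16.6, and 377 CPM of Il17ra against 329.6 to 335. Apart from Il17ra, these genes were higher in RPMs than in pre-RPMs. The pre-RPM library of mouse 4 had 32.3 CPM of the mitotic kinase gene Plk1 against 0.790 to 6.15, and Gm42418 took 26.9% of the counts in the pre-RPM library of mouse 1 against 37.9% to 38.8% in the other 3.

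For 13 genes the step from pre-RPMs to RPMs differed between the libraries labelled Il1rl1-/- and WT, by the interaction in edgeR's quasi-likelihood test with adjusted p-values from 0.00118 to 0.0441. The log2 difference (Il1rl1-/- label minus WT) was −2.67 for Il1rl1 itself, whose pre-RPM levels were higher with that label than in WT. It was −3.73 for S100a8 and −3.23 for S100a9, genes of granulocytes and monocytes, −2.56 for Adam23, and −1.84 for Pou6f1. It was 3.02 for the adenylate cyclase gene Adcy3, 2.72 for Nrp2, 1.58 for Arhgap10, 1.51 for Nck2, 1.39 for Snx9, 1.39 for Gabbr1, 1.05 for Bank1, and 0.98 for Abca1. Nck2, Nrp2, and Adam23 lie on the same chromosome as Il1rl1, and a part of linked sequence in their differences was not tested.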

How the results depend on the processing

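Against 1571 genes higher and 1205 lower, other settings gave 1502 to 1979 and 941 to 1448, except with at least 10 counts in every library (791 and 676, from fewer genes tested) and with the fold threshold itself tested by glmTreat (951 and 709). Leaving out each library in turn gave 1502 to 1601 genes higher and 1180 to 1271 lower. Without RPM replicates 3 and 4, an alternative chosen after their haemoglobin transcript levels were seen, 1508 were higher and 1179 lower. With the mouse number as a replicate block, 1565 were higher and 1217 lower, and of the named genes only Cat and Itga2b lost their call. The interaction counted 13 genes, or 36 with DESeq2, 5 with at least 10 counts in every library, 224 with every gene that had a count, 6 with library totals alone, and 24 with the replicate block, and the cause of these differences was not tested. Without single libraries it counted 10 to 18, and 18 without WT RPM replicate 3.

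Over 296 named genes tested, the alternatives gave 5206 log2 fold changes, of which 5072 kept both direction and call and none of a called gene changed sign. With glmTreat, 40 of 255 calls were lost, and under the other settings the call was lost in 59 and gained in 13, for 19 and 4 genes, and 22 values of 11 uncalled genes changed sign. Leaving out pre-RPM replicate 3 moved the fold of 103 called genes by more than 1.5 times, RPM replicate 2 of 65, RPM replicate 3 of 36, and RPM replicates 3 and 4 together of 153. Depth limits low genes, since 3 counts stand for up to 0.805 CPM.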
